A study of Homo sapiens with 36 samples.

Results

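Progesterone (PROG) and medroxyprogesterone acetate (MPA), a synthetic progestin, were compared in ZR-75-1 cells held without estradiol. MPA keeps the steroid skeleton of progesterone and carries an added methyl group and an added acetate ester. The 8 arrays labelled MPA or PROG, 4 of each, were taken from the 36 arrays of the series, and 12195 genes were compared. Each had a probe above background on at least 4 of the 36 arrays, of any group, so some lay below background with MPA and PROG. A list member counts as measured if it is among the 12195. ZR-75-1 is an established human luminal breast cancer line with estrogen and progesterone receptors. Before the 16 h treatment all cells spent 48 h in 10% serum stripped of hormones. Doses of MPA and PROG are not stated in the labels, so a difference of molecule and a difference of dose cannot be told apart. Further arrays used here, 4 of each group, were from cells given ethanol vehicle (VC), dihydrotestosterone (DHT, a potent androgen) at 10 nM, or estradiol together with MPA (E2+MPA) or with PROG (E2+PROG), again with no dose stated for any steroid of the combinations. Estradiol alone (E2, at 10 nM), E2 with DHT and a further group written E2s+PROG, whose s the labels do not explain, are used only for levels. Since the labels do not say that replicates are separate cultures, p-values reflect the variation among these arrays alone, and that variation may be technical.

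Progestins act through the progesterone receptor, a ligand-activated transcription factor. It belongs, with the glucocorticoid and mineralocorticoid receptors among others, to a subfamily that recognises the same DNA element, a palindrome of the hexamer AGAACA. In breast epithelium the progesterone receptor gene is itself induced by estradiol. MPA is known to bind the glucocorticoid receptor more strongly, and to act more like an androgen, than progesterone does. Many genes answer more than 1 of these receptors, so a gene's name in a list of androgen-induced or progestin-induced genes does not say which receptor acted here.

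The MPA and PROG arrays were alike in quality. Probes above background made up 36.22% ± 0.70 (SD, n = 4) with MPA and 36.4% ± 0.74 (SD, n = 4) with PROG, with a two-sided exact permutation p of 0.714, where 0.0286 is the smallest that 4 arrays against 4 can give. Across genes, arrays correlated with r from 0.9808 to 0.9926 within MPA, from 0.9894 to 0.9941 within PROG and from 0.9833 to 0.9924 between them, and genes are not independent replicates. MPA replicate 4 stood lowest, with a mean r of 0.9828 to its own group. All 10 defining luminal markers were above background on all 8 arrays, and of the basal markers KRT5 and KRT14 on 0 and ACTA2 on all 8 (9.50 with MPA and 9.59 with PROG). Of other cells, the stromal markers COL1A2, COL3A1, LUM and PDGFRB, the leukocyte markers PTPRC and CD3D and the endothelial marker CDH5 were above background on 0 arrays. COL1A1 (8.02 with MPA and 7.87 with PROG), CD14 (6.42 and 6.35) and PECAM1 (6.42 and 6.64), all mean log2 signals, were above background on all 8, MS4A1 on 5, DCN on 3, VWF on 2 and KDR on 1.

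MPA-treated cells had higher signal than PROG-treated cells for 53 genes and lower signal for 3, at an adjusted p under 0.05 (limma, Benjamini-Hochberg over all genes). That is 0.459% of the genes tested, 0.435% higher and 0.0246% lower. At an unadjusted p under 0.05 there were 406 genes. Among those higher with MPA were UGT2B7, UGT2B11, UGT2B28 and UGT2B10, of an enzyme family with members that attach glucuronic acid to steroids. The HSP90 cochaperone FKBP5, the lipogenic regulator THRSP, the metalloreductases STEAP1 and STEAP2 and the anion exchanger SLC26A3 were also higher. The 3 lower genes were CBLN2, DOCK2 and CTNND2. The log2 difference was between 0.5 and 1 for 27 of the 56 genes, between 1 and 2 for 26 and above 2 for 3, and 29 differed at least 2-fold. For 11294 genes (92.61%) the 95% interval of the difference lay within 2-fold in either direction, and for 7400 (60.68%) within 1.5-fold. These shares include genes below background with both steroids, for which a narrow interval does not show equal expression.

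The arrays of the 56 genes did not overlap between MPA and PROG, which was so for 4.26% of all genes tested (2.66% with MPA higher and 1.6% with MPA lower). Near the threshold, STARD13 (log2 difference 0.68, adjusted p = 0.0383), CTNND2 (-0.87, 0.0486) and KRT4 (1.18, 0.0496) lay just inside, and IL20RA (0.69, 0.0522), AKR1C3 (0.88, 0.053) and FXYD3 (0.76, 0.0534) just outside. Of the 53 higher genes, 43 were above background on all 4 PROG arrays, 7 on 1 to 3 and 3 on none. For a gene below background on some PROG arrays a fold is given as a lower bound, for which the PROG level was raised to the lowest signal that counts as above background on that array, where the gene read less. In the deposited column order the 8 arrays lay in sixes of neighbouring columns, and columns 7 to 12 and columns 31 to 36 each held 1 MPA and 2 PROG arrays. Within them the 56 differences had median sizes of 1.05 and 1.03, on arrays that chose the genes. The other MPA arrays, replicates 1 and 2, lay in columns 25 to 30, which held no PROG array.

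The largest differences were in the UGT2B genes, which encode a family of UDP-glucuronosyltransferases with members that inactivate androgens and other steroids for export. On the log2 scale UGT2B7 stood at 6.83, 6.89, 6.49 and 6.77 on PROG replicates 1 to 4 and at 10.07, 9.83, 9.79 and 9.56 on MPA replicates 1 to 4. Its means were 6.75 ± 0.18 and 9.81 ± 0.21 (SD, n = 4), a log2 difference of 3.07 with an SE of 0.25 and a limma adjusted p of 9.26e-10. Every MPA array lay far above every PROG array. The vehicle arrays, at 8.06, 6.30, 6.05 and 6.73, spanned the PROG range, with replicate 1 the highest.

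UGT2B11 stood at 6.24, 7.18, 6.62 and 5.87 with PROG and at 9.71, 9.62, 9.47 and 9.04 with MPA, a difference of 2.98 (SE 0.19, limma adjusted p = 8.84e-13). Its probe was above background on 3 of 4 PROG arrays and not on replicate 4, the lowest, where the gene counts as above background by its other probe. UGT2B28 stood at 5.57, 5.63, 5.93 and 5.64 with PROG, where 1 of 4 arrays was above background, and at 8.73, 8.56, 8.50 and 8.73 with MPA, at least 6.42-fold higher (limma adjusted p = 8.06e-15). UGT2B10, also above background on 1 of 4 PROG arrays, went from 5.59, 5.36, 5.34 and 5.93 to 6.62, 6.45, 6.51 and 6.95 and was at least 1.59-fold higher (limma adjusted p = 0.00028). These genes are close paralogs, so probes may read more than 1 of them, which was not tested. The 2 probes of UGT2B7 above background differed by 3.07 and 2.96, and the other kept probe was above background on 0 of these arrays. The 2 probes of UGT2B11 differed by 1.76 and 2.98. UGT2B17, a close relative, read 5.38 with MPA and 5.40 with PROG. These lie under the lowest signal that counts as above background (5.86 to 6.21), so a difference in it could not be detected.

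The UGT2B10, UGT2B7, UGT2B11 and UGT2B28 genes lie next to or near each other on chromosome 4 in the RefSeq order (GRCh38.p14). The windows from 250 bases before to 50 bases after the start, from RefSeq (GRCh38.p14), are shown for the members that could be matched, because the 4 genes moved together. UGT2B7 is at chr4:69096224-69096523 on the plus strand, UGT2B11 at chr4:69214699-69214998 on the minus strand and UGT2B10 at chr4:68815744-68816043 on the plus strand. Capitals mark the longest run of letters that all 3 windows share, 13 bases.
UGT2B7: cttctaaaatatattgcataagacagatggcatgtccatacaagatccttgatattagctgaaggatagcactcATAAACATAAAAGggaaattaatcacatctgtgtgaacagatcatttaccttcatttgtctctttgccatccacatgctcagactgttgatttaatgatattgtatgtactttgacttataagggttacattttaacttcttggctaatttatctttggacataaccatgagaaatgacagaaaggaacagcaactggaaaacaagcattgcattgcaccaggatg
UGT2B11: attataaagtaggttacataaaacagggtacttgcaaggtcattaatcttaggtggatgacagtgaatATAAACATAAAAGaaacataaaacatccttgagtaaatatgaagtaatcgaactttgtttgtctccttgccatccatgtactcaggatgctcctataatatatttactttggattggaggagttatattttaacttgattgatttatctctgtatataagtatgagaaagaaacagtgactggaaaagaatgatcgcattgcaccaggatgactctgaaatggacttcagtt
UGT2B10: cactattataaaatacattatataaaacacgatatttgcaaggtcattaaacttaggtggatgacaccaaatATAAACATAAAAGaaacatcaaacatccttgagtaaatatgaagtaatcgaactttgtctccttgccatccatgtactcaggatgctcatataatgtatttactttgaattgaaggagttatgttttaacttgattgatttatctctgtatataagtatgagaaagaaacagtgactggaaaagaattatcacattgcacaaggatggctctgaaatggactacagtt
The UGT2B11 and UGT2B10 windows were 90.1% identical over their aligned columns. UGT2B7 was 62.9% identical to UGT2B11 and 61.5% to UGT2B10. None of the 3 holds the hexamer AGAACA on either strand.

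**Figure D1:**
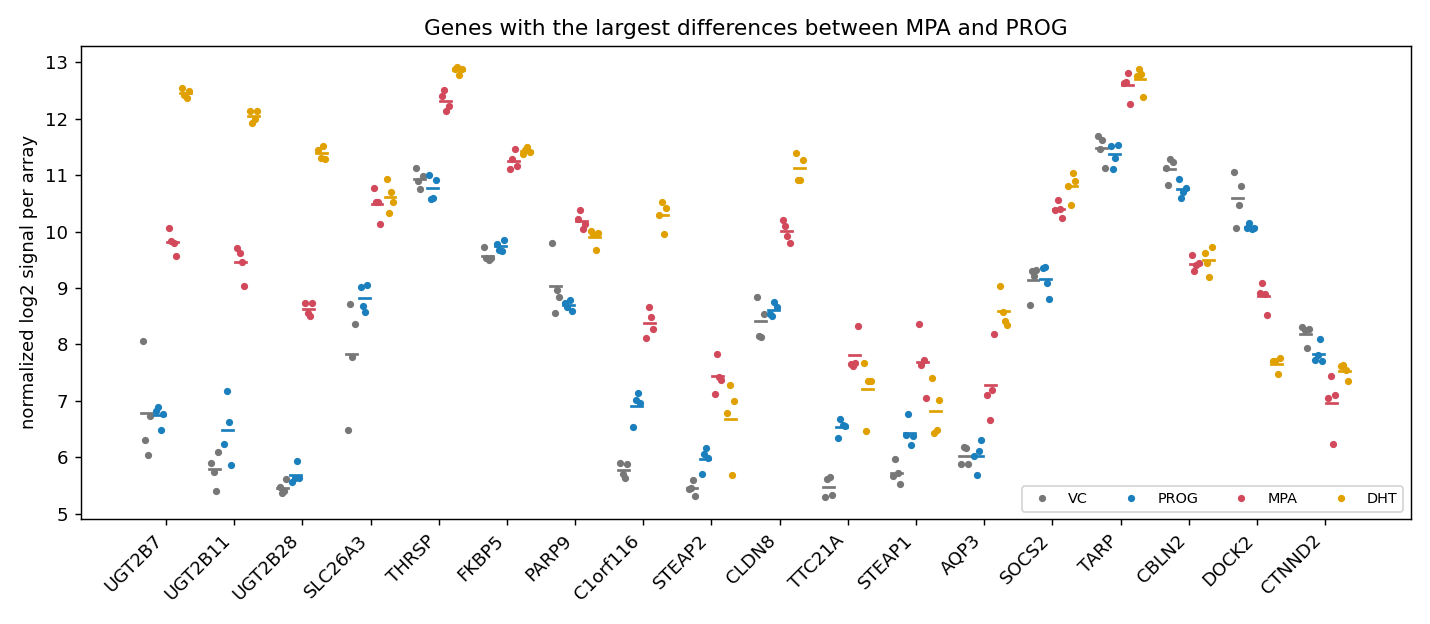
Normalized log2 signal of each array (points) and group means (bars) for the genes with the largest differences between MPA and PROG, with vehicle (VC) and DHT arrays beside them. In each gene the MPA and PROG arrays do not overlap, and the UGT2B genes were highest with DHT, at means of 12.45 (UGT2B7), 12.05 (UGT2B11) and 11.39 (UGT2B28).

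Other enzymes of steroid metabolism differed less. Of the 25 measured genes of steroid conjugation and metabolism, 6 were higher with MPA, 0 lower and 19 did not pass. The median difference was 0.14 against -0.0071 over all genes tested, of which 0.435% were higher and 0.0246% lower. UGT2B17, below background, is among the 19, so not passing does not show an unchanged gene. All gene lists here were drawn up with earlier results of these data known, so their counts are descriptions. Besides the 4 UGT2B genes, the higher ones were HSD11B2, which inactivates cortisol, and HSD17B2, which oxidises estradiol and testosterone to weaker steroids. HSD11B2 stood at 9.26, 9.25, 8.89 and 9.35 with PROG and at 10.06, 9.81, 9.91 and 10.21 with MPA, 1.75-fold higher (limma adjusted p = 0.00052). HSD17B2 differed by 0.97 (limma adjusted p = 0.034), with PROG replicate 3 low at 7.03 and the other PROG arrays from 7.73 to 8.0. In 12 of 22 alternatives HSD17B2 passed, and the largest adjusted p among them was 0.283.

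FKBP5 is induced by each receptor of this subfamily and encodes a cochaperone that limits hormone binding by the glucocorticoid receptor. It stood at 9.78, 9.68, 9.65 and 9.86 with PROG and at 11.11, 11.28, 11.46 and 11.17 with MPA. The difference was 1.51 (SE 0.13, 2.85-fold, limma adjusted p = 5.7e-09). The PROG arrays lay close to the vehicle mean of 9.57, and the MPA arrays close to the DHT mean of 11.44. Among the 17 measured HSP90 cochaperones of steroid receptors FKBP5 alone passed, and the median of that list was -0.06. The FKBP5 window, at chr6:35728534-35728833 on the minus strand (RefSeq, GRCh38.p14), is shown because it holds the hexamer AGAACA, in capitals.
FKBP5: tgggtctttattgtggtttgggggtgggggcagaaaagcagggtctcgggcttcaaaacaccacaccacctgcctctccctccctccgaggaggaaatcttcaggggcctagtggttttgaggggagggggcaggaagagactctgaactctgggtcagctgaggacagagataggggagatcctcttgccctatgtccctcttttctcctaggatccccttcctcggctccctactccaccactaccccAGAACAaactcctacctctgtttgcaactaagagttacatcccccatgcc
Promoter windows of this length were matched for 45 of the 53 higher genes, and 6 (13.3%) held AGAACA on either strand, namely FKBP5, NEDD4L, SGPP2, TRNP1, TTC39C and USP54. It stood in 9.03% of the windows of 9964 tested genes and in 14.9% of all 27305 windows. The palindrome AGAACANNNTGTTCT, in which the hexamer meets its reverse complement, was in 0 of the 45 and in 1 of the 27305. A match is only a description of these letters, and a window without one says nothing of the receptors.

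Of the 33 measured progestin-induced genes, 28 did not pass, 0 were lower and 5 were higher with MPA, against 0.435% of all genes tested. The median was 0.22. The 5 were FKBP5, HSD11B2, HSD17B2, the transcription factor KLF9 and the leucine zipper protein TSC22D1. KLF9 stood at 11.44, 11.62, 11.49 and 11.58 with PROG and at 12.21, 12.34, 12.10 and 11.97 with MPA (difference 0.62, limma adjusted p = 0.0099), and its vehicle arrays, from 11.53 to 12.19, overlapped both. TSC22D1 differed by 0.65 (limma adjusted p = 0.009), and its 4 probes by between 0.39 and 0.65. The calls of KLF9 and TSC22D1 held in 16 and 18 of 22 alternatives. With median scaling in place of quantile normalization 2 list members passed, and with array weights 10. The list holds genes also known to respond to androgens or glucocorticoids.

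Several members of the progestin-induced list did not pass. SGK1, a kinase that raises sodium uptake, stood at 6.04, 5.88, 6.31 and 6.95 with PROG and at 7.32, 7.21, 7.19 and 6.94 with MPA (difference 0.87, 95% interval 0.41 to 1.33, limma adjusted p = 0.087). PROG replicate 4 lay within the MPA range, and without it the difference was 1.09 and passed. S100P, a secreted calcium-binding protein, differed by 0.62 (0.18 to 1.06, adjusted p = 0.58). CCND1, the cyclin of G1, differed by -0.12 (-0.36 to 0.13), an interval within 1.5-fold, although its sign turned to 0.07 under median scaling. THBS1 differed by 1.01 without passing, and EGFR by -0.35.

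Genes with response elements for this receptor subfamily, mostly described for the glucocorticoid receptor, were also listed. Of 26 measured, 23 did not pass, 0 were lower and 3 were higher, against 0.435% of all genes tested. The median was 0.15. The 3 were FKBP5, KLF9 and BCL6, a transcriptional repressor, which stood at 11.06, 11.30, 11.10 and 11.24 with PROG and at 11.87, 11.93, 11.91 and 11.90 with MPA (difference 0.73, limma adjusted p = 0.0013). The MPA arrays of BCL6 all lay between 11.87 and 11.93. TSC22D3, which encodes the glucocorticoid-induced leucine zipper, differed by 0.19 (95% interval -0.21 to 0.59), and 2 of its 4 probes went the other way. PER1, a circadian repressor, was above background on 0 PROG arrays and on 1 MPA array. All 6 measured metallothioneins, the metal-binding proteins that glucocorticoids raise, did not pass, with a median of 0.06. ZBTB16 is not analysed here.

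Of the 35 measured androgen-induced genes, 25 did not pass, 0 were lower and 10 were higher with MPA, against 0.435% of all genes tested. The median was 0.37 against -0.0071 over all genes. This list too was drawn up with earlier results of these data known, and its count is a description. Of the 25, KLK2, RAB3B and HPGD had means with both steroids under 5.86, the lowest signal above background on any array. C1orf116, named for its androgen regulation as SARG, stood at 6.53, 7.01, 7.14 and 6.97 with PROG and at 8.11, 8.66, 8.49 and 8.27 with MPA. It was 2.77-fold higher (limma adjusted p = 6.7e-06), and 0 of its vehicle arrays were above background. The tight junction protein CLDN8 stood at 8.54, 8.51, 8.75 and 8.66 and 10.21, 10.10, 9.93 and 9.80 and was 2.63-fold higher (adjusted p = 1.3e-07), by 1.39 and 1.40 on its 2 probes. SLC26A3, a chloride and bicarbonate exchanger, stood at 9.01, 8.68, 8.58 and 9.05 with PROG and at 10.78, 10.52, 10.52 and 10.13 with MPA, 3.16-fold higher (adjusted p = 0.00079). Its vehicle arrays ranged from 6.49 to 8.71.

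STEAP2, a metalloreductase of the cell surface and endosomes, stood at 5.70, 6.06, 6.16 and 5.98 with PROG, 3 of 4 arrays above background, and at 7.13, 7.84, 7.43 and 7.37 with MPA, at least 2.62-fold higher. STEAP1, its neighbour on chromosome 7 in the RefSeq order, stood at 6.39, 6.77, 6.21 and 6.38 with PROG and at 8.36, 7.63, 7.73 and 7.05 with MPA, 2.39-fold higher (limma adjusted p = 0.0011). Its MPA arrays spread over more than 1 log2 unit, with replicate 4 the lowest. AQP3, a channel for water and glycerol, went from 6.02, 5.69, 6.11 and 6.31 to 7.11, 6.66, 7.20 and 8.19, with MPA replicate 4 the highest, at least 2.28-fold higher (adjusted p = 0.0087). EAF2, a partner of the transcription elongation factor ELL, differed by 1.21, TTC21A, a protein of ciliary transport, by 1.28, the potassium channel KCNMA1 by 0.98 and CROT, which moves medium-chain acyl groups to carnitine in peroxisomes, by 0.92. TMPRSS2, SLC45A3 and ABHD2, all known androgen-induced genes of prostate, did not pass, with differences of -0.30, -0.20 and -0.42.

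**Figure D2:**
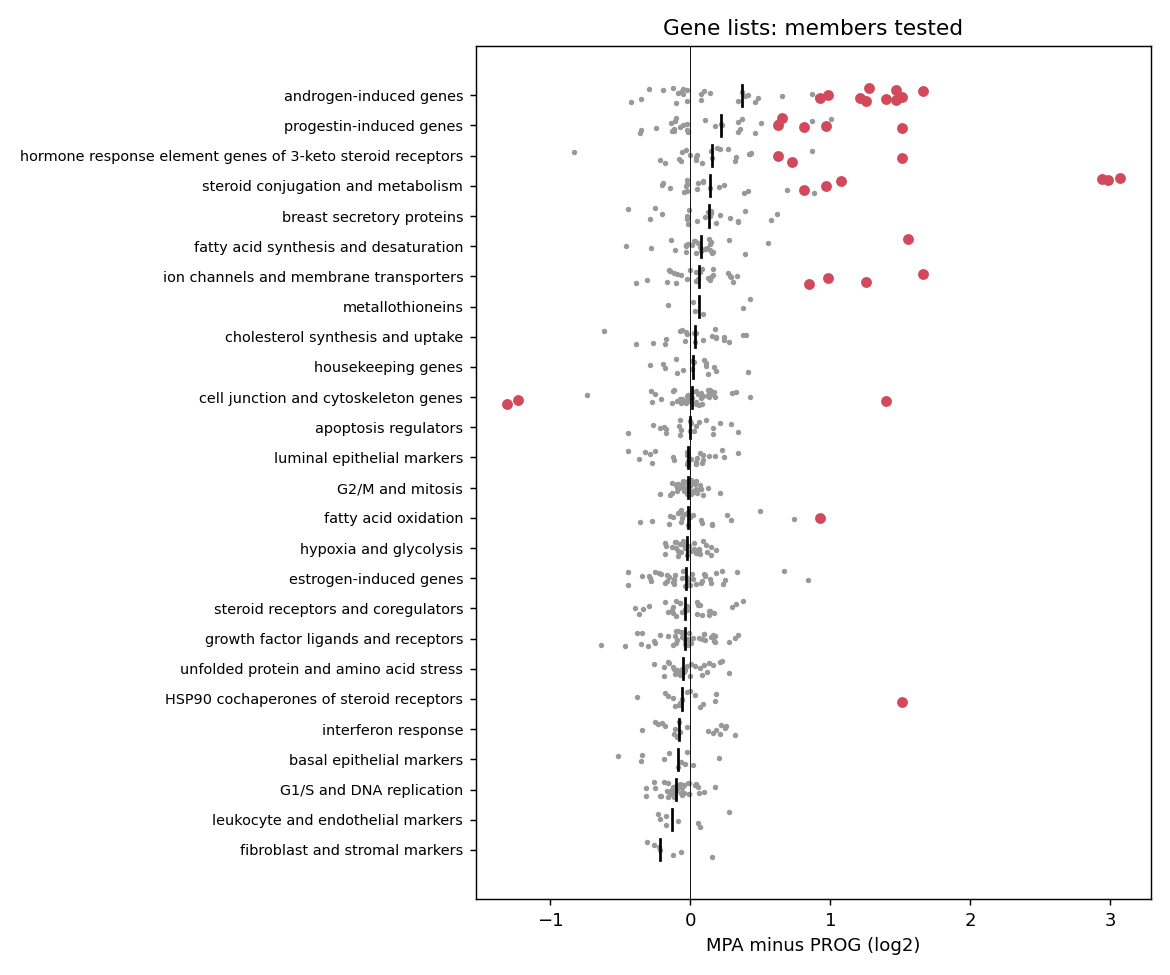
MPA minus PROG (log2) for the measured members of each gene list, as points, with the median as a black bar and members past the adjusted p of 0.05 as larger red points. Members past the threshold lie mainly in the lists of androgen-induced genes (10 of 35), steroid conjugation and metabolism (6 of 25) and progestin-induced genes (5 of 33). The lists share members and were drawn up with earlier results of these data known, so where the members fall is a description only.

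Ion channels and membrane transporters had a median of 0.06, with 0 of 32 measured members lower and 4 higher, against 0.435% of all genes tested. These were SLC26A3, AQP3, KCNMA1 and ABCC11, an exporter of the apocrine gland, which differed by 0.85 (limma adjusted p = 0.014), while its 3 probes ranged from 0.01 to 0.96. Of the 28 measured genes of fatty acid synthesis and desaturation THRSP alone passed. THRSP, a nuclear regulator of lipogenic enzymes that answers thyroid hormone and progestins, stood at 11, 10.58, 10.59 and 10.91 with PROG and at 12.40, 12.51, 12.14 and 12.23 with MPA, 2.93-fold higher (adjusted p = 4.28e-08). The PROG arrays lay around the vehicle mean of 10.94. In fatty acid oxidation CROT alone of 25 passed.

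TARP, a protein read from an alternate frame of the T cell receptor gamma locus and known from androgen-responsive prostate and breast cells, stood at 11.51, 11.11, 11.31 and 11.54 with PROG and at 12.64, 12.65, 12.81 and 12.26 with MPA, a difference of 1.22 (adjusted p = 2.6e-07). T cell marker CD3D was above background on 0 of the 8 arrays. SOCS2, a suppressor of cytokine and growth hormone signalling, differed by 1.24 (adjusted p = 4.4e-06), and its 2 probes by 1.19 and 1.24. PARP9, an ADP-ribosyltransferase of DNA repair and interferon signalling, stood at 8.73, 8.67, 8.78 and 8.60 with PROG and at 10.22, 10.38, 10.04 and 10.13 with MPA, 2.82-fold higher, while its second probe differed by 0.44. PARP14, which lies close to PARP9 on chromosome 3, was above background on 2 of 4 PROG arrays and at least 2.28-fold higher. Vehicle replicate 1 read PARP9 at 9.80, near the MPA arrays. Of the 20 measured interferon response genes none passed, with a median of -0.08.

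The remaining genes higher with MPA were chosen for naming after their values were seen. DIO2, which activates thyroid hormone, differed by 1.13, PNMT, which makes adrenaline, by 1.12 and DDC, which decarboxylates aromatic amino acids, by at least 2.01-fold. Those of membranes and lipids were SGPP2, a sphingosine phosphate phosphatase (0.82), the receptor S1PR3 (0.51), the phosphatidylserine decarboxylase PISD (0.80) and the acyl-CoA synthetase ACSF2 (0.77). WWC1 and WWC3, scaffold proteins of the Hippo pathway, differed by 0.77 and 0.60. The ubiquitin ligase NEDD4L (0.93), the heme synthesis enzyme UROD (0.52), the keratin KRT4 (1.18), the kinesin adaptor SYBU (1.14), ANKRD22 (1.13), ZNF689 (1.09), USP54 (1.04), STOX1 (0.92), ARHGEF37 (0.89), SASH1 (0.87), TTC39C (0.83), SERHL2 (0.83), EMP1 (0.74) and STARD13 (0.68) completed the genes measured on all PROG arrays. RANBP3L and CALD1, the gene of the actin-binding protein caldesmon, were above background on 0 PROG arrays and at least 1.43-fold and 1.47-fold higher. SLC2A14, above background on 0 PROG and 3 MPA arrays, was at least 1.41-fold higher and is a near-identical copy of SLC2A3. TRNP1 was at least 1.78-fold higher. The second probe of ARHGEF37, above background on all 4 MPA and all 4 PROG arrays, differed by 0.13. The calls of STARD13, KRT4, SLC2A14 and S1PR3 held in 8, 9, 11 and 12 of 22 alternatives.

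The 3 genes lower with MPA have different known roles. CBLN2, a secreted organiser of synapses, stood at 10.93, 10.59, 10.71 and 10.77 with PROG and at 9.59, 9.31, 9.40 and 9.44 with MPA, a difference of -1.31 (SE 0.16, limma adjusted p = 2.7e-06). DOCK2, an activator of the GTPase RAC best known from leukocytes, stood at 10.07, 10.16, 10.04 and 10.07 with PROG and at 8.91, 9.09, 8.90 and 8.52 with MPA, a difference of -1.23 (adjusted p = 0.00053). CTNND2, a catenin of cell junctions, stood at 7.72, 7.82, 8.10 and 7.71 with PROG and at 7.06, 7.44, 6.24 and 7.11 with MPA, and its MPA replicate 3 was the lowest. In 10 of 22 alternatives CTNND2 passed (largest adjusted p 0.452), whereas CBLN2 and DOCK2 passed in all 22. Of 43 measured cell junction and cytoskeleton genes, a list that does not hold CTNND2, CBLN2 and DOCK2 were lower, CLDN8 was higher and 40 did not pass.

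No measured member of the lists of steroid receptors and of proliferation genes passed between MPA and PROG at this precision. PGR was above background on 2 of 4 PROG arrays and 0 MPA arrays, at 5.38, 6.22, 6.37 and 5.44 with PROG and 5.61, 5.48, 5.78 and 5.35 with MPA, with a 95% interval of the difference from -0.78 to 0.18. Of the 30 measured steroid receptors and coregulators none passed, among them NR3C1, the glucocorticoid receptor gene (-0.34, interval -0.81 to 0.13, on its 1 probe above background on all 8 arrays), and ESR1, the estrogen receptor gene (-0.37, interval -0.73 to -0.01). None of the 43 measured estrogen-induced genes passed, with a median of -0.03. TFF1, a secreted trefoil peptide, differed by -0.45 (interval -0.96 to 0.06), and GREB1, a growth regulator, by 0.84 (0.36 to 1.32, adjusted p = 0.16) on its 1 probe above background on all 8 arrays. BCL2, an inhibitor of apoptosis, differed by -0.45 (-0.86 to -0.04). For ESR1, GREB1 and BCL2 the MPA and PROG arrays did not overlap, which was so for 4.26% of all genes tested. The SD of ESR1 was 0.06 with PROG, 0.115 with MPA and 0.633 with vehicle, and the fit pools the spread of all groups. Vehicle replicate 1 read ESR1 at 9.82 and the other vehicle arrays from 11.02 to 11.13.

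Among 41 genes of G1/S and DNA replication and 40 of G2/M and mitosis, none passed, with medians of -0.11 and -0.02 and ranges from -0.32 to 0.17 and from -0.22 to 0.21. No member passed in 22 breast secretory proteins, where SCGB1D2, a lipophilin of breast secretions, differed by 0.15 (interval -0.19 to 0.49). The same held for cholesterol synthesis and uptake (23 measured), luminal (27) and basal (11) markers, growth factors and their receptors (40), the unfolded protein response (30), hypoxia and glycolysis (31), apoptosis regulators (22) and housekeeping genes (16). Of fibroblast and stromal markers 7 were measured and of leukocyte and endothelial markers 8, with medians of -0.22 and -0.13 and no member past the threshold. All these counts of 0 are of limma calls. With array weights, 1 member each passed in the estrogen-induced, receptor, secretory, basal, stromal, growth factor and housekeeping lists, and 2 of the luminal list.

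Set against vehicle, the steroids differed in how many genes passed, but these comparisons share the MPA or the PROG arrays with the one above and share the vehicle arrays with each other, so only levels are set side by side. MPA against vehicle gave 110 genes higher (0.902%) and 119 lower (0.976%), together 1.88% of genes. PROG against vehicle gave 4 higher (0.0328%) and 3 lower (0.0246%), together 0.0574%. The PROG count rests on the vehicle arrays, since without vehicle replicate 2 it was 943 and without vehicle replicate 3 it was 1, while the MPA count then ranged up to 1692. Both contrasts moved the median of all genes, by -0.10 for MPA and -0.11 for PROG. C1orf116 and TTC21A were above background on 0 vehicle arrays. C1orf116 was at least 1.86-fold above vehicle with PROG (limma adjusted p = 0.0037) and at least 5.14-fold with MPA. TTC21A was at least 1.44-fold above vehicle with PROG (adjusted p = 0.027) and at least 3.48-fold with MPA. SCGB1D2 was 1.02 above vehicle with PROG (adjusted p = 0.0037) and 1.17 with MPA. FKBP5 was 0.17 above vehicle with PROG and 1.68 with MPA. HSD11B2 was 0.46 above vehicle with PROG (adjusted p = 0.12) and 1.27 with MPA. BCL2 was 0.76 below vehicle with PROG and 1.20 below with MPA. For UGT2B7, THRSP, SOCS2 and TARP, PROG differed from vehicle by between -0.17 (THRSP) and 0.02 (SOCS2), without passing.

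DHT against vehicle, which shares no array with MPA against PROG, was set beside the 56 genes. DHT gave 133 genes higher (1.09%) and 160 lower (1.31%), together 2.4%. That is 293 genes, and without vehicle replicate 1 the count was 164. Of the 53 genes higher with MPA, 40 (75.47%) were also higher with DHT, 30.08% of the 133, 0 were lower and 52 had the same sign. Of the 3 lower genes, CBLN2 and DOCK2 were also lower with DHT. Across all 12195 genes the differences correlated with r = 0.30, a description, since all arrays share 1 normalization. Columns 13 to 24 of the deposited table hold 3 of 4 DHT arrays and 1 of 4 vehicle arrays. Outside that run, with 1 DHT array assumed to vary like the other groups, 26 of the 75 genes called between MPA and PROG were also called with DHT.

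The DHT level was above the MPA level for 30 of the 53 genes, between PROG and MPA for 21 and below PROG for 2. UGT2B7 stood at 12.54, 12.42, 12.36 and 12.49 with DHT, against an MPA mean of 9.81. UGT2B11 and UGT2B28 were at least 65.3-fold and at least 41.3-fold above vehicle with DHT, and UGT2B10 at least 9.06-fold. FKBP5 stood at 11.38, 11.45, 11.50 and 11.42 with DHT, which overlaps the MPA range. C1orf116 stood at 10.29, 10.52, 9.96 and 10.42 with DHT, against an MPA mean of 8.38. STEAP1, STEAP2 and TTC21A had lower means with DHT (6.83, 6.69 and 7.21) than with MPA (7.70, 7.44 and 7.82), and their arrays overlapped.

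**Figure D3:**
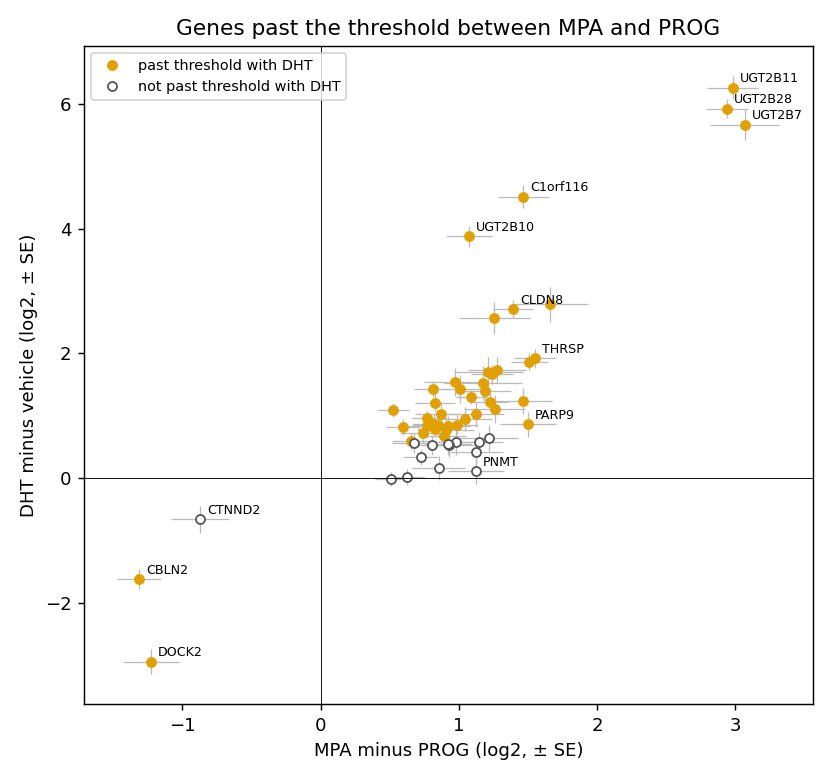
MPA minus PROG (x axis) against DHT minus vehicle (y axis), both log2 with SE bars, for the 56 genes past the threshold between MPA and PROG. Filled points passed with DHT (42 genes, 40 higher and 2 lower) and open points did not.

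The 13 genes higher with MPA that did not pass with DHT were BCL6, KLF9, PISD, S1PR3, STOX1, SYBU, CALD1, DIO2, NEDD4L, PARP14, PNMT, SLC2A14 and STARD13. Of these KLF9, S1PR3 and NEDD4L also did not pass with MPA against vehicle (limma adjusted p = 0.109, 0.0703 and 0.0645). PNMT stood at 7.79, 7.29, 7.22 and 7.13 with MPA and 6.13, 6.57, 5.95 and 6.29 with PROG, and at 5.66, 5.39, 5.33 and 5.48 with DHT, where neither DHT nor vehicle arrays were above background. KLF9 differed from vehicle with DHT by 0.02 (limma adjusted p = 0.98) and S1PR3 by -0.01. SLC2A14 was above background on 0 DHT and 0 vehicle arrays. SYBU (0.57, adjusted p = 0.081), STOX1 (0.55, 0.083), PISD (0.53, 0.073) and STARD13 (0.56, 0.052) lay nearer the threshold with DHT. A difference between the DHT and the MPA effect was not tested for these genes.

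With estradiol present, more genes were lower with MPA than higher. E2+MPA against E2+PROG gave 94 genes higher (0.771%) and 202 lower (1.66%), together 2.43%, on arrays that MPA against PROG does not use. With E2 32 of the 53 genes were also higher, 6 lower and 15 not past the threshold. DOCK2 alone of the 3 lower genes was also lower. The 33 genes shared in direction are 58.93% of the 56 and 11.15% of the 296. Across all genes the differences correlated with r = 0.12. The count with E2 was 91 on the arrays outside columns 13 to 24 and 526 on those inside, which hold 2 of 4 arrays of each E2 group, and the counts of shared genes are given for all arrays.

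The UGT2B genes were also higher with E2+MPA than with E2+PROG. UGT2B11 stood at 5.80, 5.64, 5.97 and 5.62 with E2+PROG and at 8.78, 8.93, 9.20 and 8.78 with E2+MPA, at least 7.61-fold higher. The gap of UGT2B7 was 2.77 and that of UGT2B28 at least 4.19-fold. For THRSP the gap was 2.08, as E2+PROG arrays stood at 9.69, 9.69, 9.89 and 9.84. STEAP2 (at least 3.16-fold), TARP (1.88), SOCS2 (1.83) and SERHL2 (1.48) were also higher, and the change in gap between the settings passed for none of these genes.

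The change in gap itself, E2+MPA minus E2+PROG less MPA minus PROG, passed for 83 genes (0.681%), 80 of them lower with E2 (0.656%) and 3 higher. Among the 56 genes it passed for 11, which were chosen on arrays that enter the change, so nothing is read from that count. FKBP5 stood at 11.37, 11.51, 11.20 and 11.48 with E2+PROG and at 11.42, 11.46, 11.82 and 11.93 with E2+MPA, a gap of 0.27 (adjusted p = 0.43) where it was 1.51 without E2 (change -1.24, limma adjusted p = 0.00012). FKBP5 with PROG thus read 9.74 without E2 and 11.39 with it, while MPA read 11.25 and 11.66. In E2s+PROG FKBP5 stood at 10.11, 9.94, 10.30 and 10.46, between PROG and E2+PROG.

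C1orf116 turned its order. It stood at 10.21, 10.50, 10.33 and 10.64 with E2+PROG and at 8.78, 8.56, 9.33 and 8.77 with E2+MPA, a gap of -1.56 after 1.47 without E2 (change -3.03, limma adjusted p = 2.73e-09). HSD11B2 went from a gap of 0.81 to -0.78, with E2+PROG arrays at 10.72, 10.62, 10.66 and 10.96 and E2+MPA arrays at 10.04, 9.99, 9.96 and 9.85. For EMP1, a membrane protein of epithelia, E2+PROG arrays stood at 11.17, 10.97, 11.05 and 11.16 and E2+MPA arrays at 9.92, 9.65, 9.85 and 9.91, and the change was -2.0 (adjusted p = 1.1e-06). In each of these 3 genes every E2+PROG array lay above every PROG, MPA and E2+MPA array. TRNP1 (gap -1.62), CALD1 (-1.12) and SGPP2 (-0.76) were also lower with E2+MPA than with E2+PROG. DIO2, PNMT and SLC2A14 had gaps of -0.16, -0.30 and -0.59 with E2 that did not pass, and their changes did. CBLN2 had a gap of -0.13 with E2, after -1.31 without (change 1.18, adjusted p = 0.0028).

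**Figure D4:**
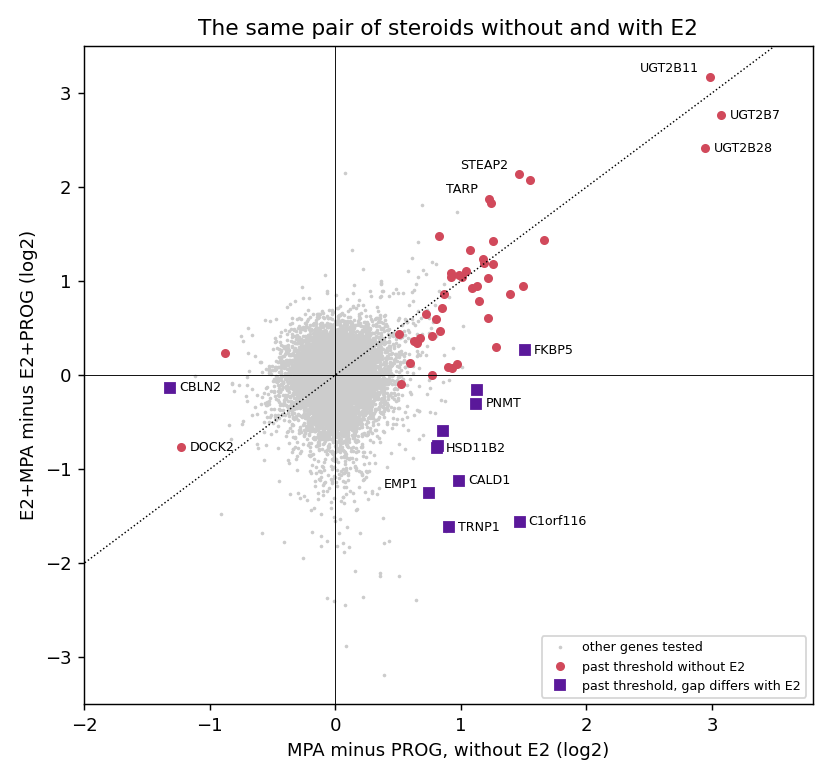
MPA minus PROG without E2 (x axis) against E2+MPA minus E2+PROG (y axis), both log2, for all 12195 genes tested (grey), the genes past the threshold without E2 (red circles) and those of them whose gap changed with E2 (11 violet squares). The dotted line marks equal gaps. UGT2B genes lie near it, and C1orf116 and HSD11B2 lie above 0 on the x axis and below 0 on the y axis.

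Most genes whose gap changed with E2 did not pass between MPA and PROG without it, as was so for most genes tested. Of the 80 with a lower gap 70 did not pass in MPA against PROG, where 0.459% of all genes passed. The 80 were chosen on arrays that enter both tests, so nothing is read from the 70. AKR1C2, which reduces progesterone and dihydrotestosterone, stood at 9.07, 9.33, 8.94 and 9.35 with E2+PROG and at 5.74, 6.4, 5.91 and 5.92 with E2+MPA, and at 5.78 and 6.17 on average with PROG and MPA alone. ANXA1, an anti-inflammatory annexin, had means of 11.86 with E2+PROG and 8.99 with E2+MPA, and of 8.26 and 8.34 without E2. PHACTR3 (change -3.04) and the collagen prolyl hydroxylase P3H2 (-2.64) moved likewise. BPIFB1, a secreted airway protein, and PIP, a prolactin-induced secretory protein, were lower with E2+PROG (9.21 and 11.62) than with E2+MPA (11.35 and 12.95). The E2+MPA arrays of PIP stood at 13.65 and 13.51 on replicates 1 and 2. They stood at 12.34 and 12.3 on replicates 3 and 4, which lie in columns 13 to 24. The change of PIP was 1.19 (limma adjusted p = 0.0473). Near-identical AKR1C copies may share probes, which was not tested.

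PGR marks the state of the cells in both settings. Without E2 it was above background on at most 2 arrays of the vehicle, PROG, MPA and DHT groups. With E2 alone its mean was 8.94, with E2+PROG 7.39 and with E2+MPA 6.97. The PGR signals compared without E2 thus lie near background. The part of the receptor's level in any difference above was not tested.

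**Figure D5:**
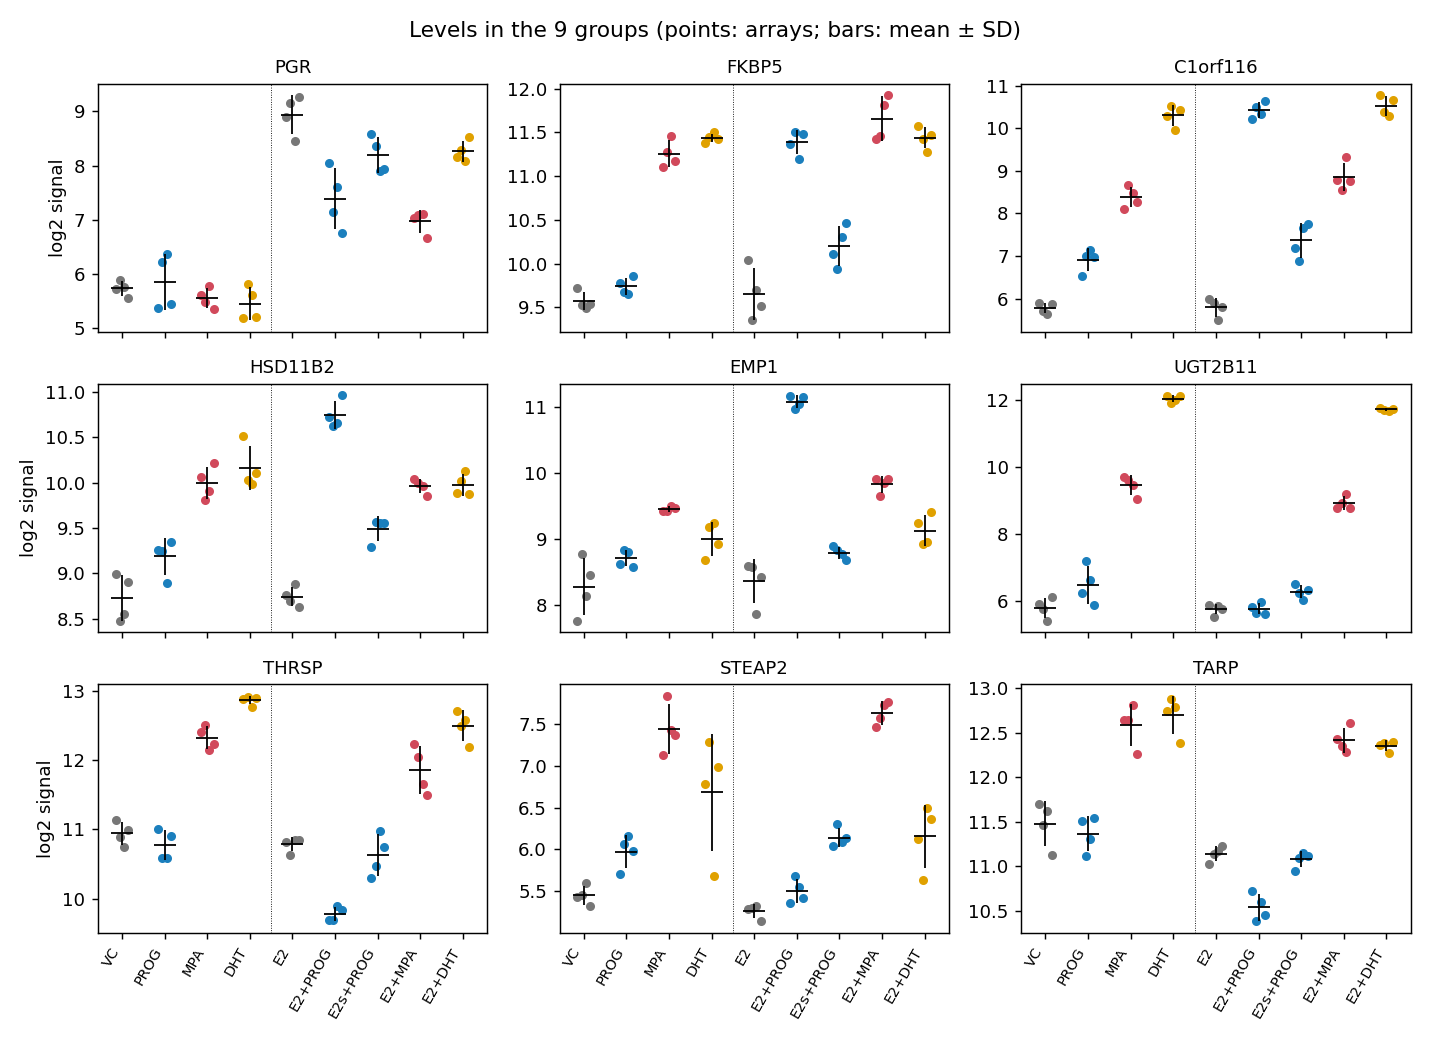
Normalized log2 signal of 9 genes in all 9 groups (points are arrays, bars are mean ± SD, n = 4), with groups without E2 left of the dotted line. FKBP5, C1orf116, HSD11B2 and EMP1 were higher with MPA than with PROG alone while with E2 the FKBP5 gap did not pass and the other 3 were lower with E2+MPA, and UGT2B11, THRSP, STEAP2 and TARP were higher with MPA in both settings.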

How the data were processed

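Biotin-labelled cRNA of ZR-75-1 cells was measured on Illumina bead arrays, per the labels. The authors deposited an unnormalized intensity and a detection p-value for each of 48803 probes and 36 arrays, per the file headers. They also deposited a processed intensity table, which on each array is a straight line of the unnormalized one. Array software and scanner are not given in the sources used here. The unnormalized intensities were normalized with limma (version 3.58.1, R version 4.3.3, with data.table at version 1.17.8) by neqc with an offset of 16 (background from the deposited detection p-values, quantile normalization, log2). Probes with a detection p under 0.05 on at least 4 of the 36 arrays, of any group, were kept (21116). The brightest kept probe per gene was used, for 12195 genes. Of probes named by the platform annotation, 27578 had 1 symbol, 27541 of them matched by gene identifier, 13 had several and 21212 none. A gene counts as above background on an array where any of its probes does.

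All 36 arrays entered 1 limma fit with a mean for each of the 9 groups (27 residual degrees of freedom), from which 6 contrasts were taken and tested by moderated statistics. P-values were adjusted by Benjamini-Hochberg within a contrast, with a threshold of 0.05. The number of arrays limits the precision. Differences and signals are log2. The script was tested on simulated data.

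The members and the 26 gene lists (600 of 767 symbols tested, 82 in more than 1 list) were chosen with earlier results of these data known. Named genes were up to 15 per direction with the largest differences and arrays that did not overlap, at most 4 members of each list that passed, fixed steroid response genes, and up to 5 per direction in the change of gap with E2, 45 genes in all. Of the fixed genes 2 were not tested. Others are said to be named after their values were seen, as are those near the threshold and unchanged list members given by value. Same-numbered MPA and PROG arrays deviated together with correlations of 0.27, 0.07, 0.19 and 0.11, which does not make the numbers a pairing. Alternatives were the offset, no background correction, median scaling, the authors' processed values, filters, the mean of probes, fewer arrays, array weights, an intensity trend, blocks of columns and leaving out each array.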

Additional observations from a re-analysis of the deposited data

Results flagged for a closer look

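Single arrays stood apart from the other 3 of their group in 3 of 148 groups checked, by Dixon's criterion at 95%, which chance meets in about 1 group in 20. ACSF2 read 8.23 on PROG replicate 2, with the others from 7.98 to 8.0. PARP14 read 6.92 on MPA replicate 1, with the others from 7.39 to 7.45. TTC21A read 8.33 on MPA replicate 4, with the others from 7.62 to 7.68.

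By the test of the change itself, 83 of all 12195 genes (0.681%) had a different gap between MPA and PROG with E2 than without. Among the 74 genes checked, 18 did. Some of the 74 were named because they passed this test, and others were chosen on arrays that enter it. Nothing is therefore read from the count of 18. The change (gap with E2 minus gap without, log2) was negative for AKR1C2 (-3.57), PHACTR3 (-3.04), C1orf116 (-3.03), ANXA1 (-2.96), P3H2 (-2.64), TRNP1 (-2.52), CALD1 (-2.11), EMP1 (-2.0), HSD11B2 (-1.59), SGPP2 (-1.58), S100P (-1.5), SLC2A14 (-1.45), PNMT (-1.43), DIO2 (-1.28) and FKBP5 (-1.24). It was positive for BPIFB1 (2.06), PIP (1.19) and CBLN2 (1.18). Several of these genes lay near background without E2, where the fitted size is measured against background.

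Among 4742 kept probes without 1 gene name, which entered no gene test, 4 (0.0844%) passed between MPA and PROG, all higher with MPA, by 1.05 to 1.21.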

How the results depend on the processing

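Of the 56 genes of MPA against PROG, 27 passed in all 22 alternatives. Of 1230 pairs of called gene and alternative, 1067 passed. The count was 37 with median scaling, which moved the median of all genes to 0.08, 87 with columns 13 to 24 as a block and 196 with array weights, where 77.04% of the calls were higher against 94.64%. Without 1 array it ranged from 41 to 55. Without PROG replicate 1 39 of the 56 remained, and the calls lost were ABCC11, ACSF2, CALD1, CTNND2, DDC, EMP1, HSD17B2, KLF9, KRT4, NEDD4L, S1PR3, SASH1, SLC2A14, STARD13, TRNP1, TSC22D1 and WWC3. Leaving out other arrays also lost AQP3 (MPA replicate 4 or PROG replicate 2), EAF2 (MPA replicate 1 or PROG replicate 3) and UROD (5 of the arrays).

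The replicate block gave 62 calls for MPA against PROG and lost HSD17B2. The same-numbered arrays share only a number. No chip is named in the headers, so the slide as a block was not run.

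For the other contrasts, E2+MPA against E2+PROG gave 145 calls (main 296) with median scaling, 82 with only the arrays compared, 91 outside and 526 inside columns 13 to 24, and 192 to 406 without 1 array. The change of gap with E2 gave 46, 131 with array weights, 47 outside those columns and 65 to 88 without 1 array (main 83). MPA against vehicle (main 229) gave 95, 40, 605 with weights, 124 with sixes of columns as a block, 694 outside the columns and 119 to 1692 without 1 array. PROG against vehicle (main 7) gave 2 with median scaling, 2 without background correction, 2 with only the arrays compared, 562 with weights, 1 with sixes, 727 outside and 1 to 943. DHT against vehicle (main 293) gave 93, 34, 471 with weights, 1010 with columns 13 to 24 as a block, 18 inside them and 164 to 366. Genes shared with E2 present (main 33) were 19 with median scaling, 17 with only the arrays compared, 54 with weights and 27 to 31 without 1 array. Those shared with DHT (main 42) were 22, 19, 99, 26 outside the columns (of 75, with 1 DHT array) and 32 to 39. Signs turned for CCND1 (0.0715, median scaling), NR3C1 (0.0083, mean of probes, 2 of 3 near background) and ANXA1 (-0.0023 with sixes as a block, and -0.0924 to 0.2722 without 1 array, lowest without MPA replicate 1), none of them called. The causes were not tested. Sixes and the parts of the column order were chosen after seeing the data. Signal near background limits UGT2B28, UGT2B10, PGR and PER1.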
